A study of Homo sapiens with 9 samples.

Results

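CXCL1, CXCL2, CXCL3 and CXCL8 are the genes described here, chosen by symbol in the gene tables of all 9 libraries, 4 of the 57733 genes listed. They encode secreted chemokines that bind the receptor CXCR2, and they lie on 1 stretch of chromosome 4. Nascent RNA was measured in PANC-1, an established human pancreatic ductal carcinoma line, in 3 lines: a control without a guide RNA (WT) and the CRISPR/Cas9 knockouts of KDM6A (UTX) KO C22 and KO C28, each of which is 1 clone. Bru-seq, which sequences RNA that took up 2 mM bromouridine over 30 min with a chase of 0 h, gave 2 libraries per line, and BruUV-seq, in which cells also received 100 J/m2 of UV light, gave 1. The labels name no stimulus, and all lines grew in medium with serum. The labels do not say whether replicates were separate cultures, so p-values measure the spread between these libraries only, which may be technical.

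CXCR2 sits on neutrophils and some other cells, and its ligands draw neutrophils into tissue. The genes of these ligands are kept low in resting epithelial cells and are switched on quickly by inflammatory signals through NF-kB, which binds kappa B sites close to their starts. Their mature mRNAs are short-lived. Only RNA that took up the label is read, so the measurement reflects transcription during labelling more than the stock of mRNA. Loss of short-lived RNA within the labelling time could lower the reads and was not tested. Pancreatic carcinoma cells are known to secrete several of these ligands.

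In the coordinates of the deposited tables (hg38/GRCh38), CXCL8 (ENSG00000169429.10), also called interleukin 8, spans 73740506 to 73743716 on the plus strand of chromosome 4, a gene of 3211 bases. CXCL1 (ENSG00000163739.4) follows after 126 kb at 73869404 to 73871242, plus strand, with 1839 bases. CXCL3 (ENSG00000163734.4) lies 165 kb further on at 74036589 to 74038689, minus strand, with 2101 bases, and CXCL2 (ENSG00000081041.8) another 58.3 kb away at 74097035 to 74099293, minus strand, with 2259 bases. The 4 genes span 359 kb, and no other gene of the tables overlaps any of them. The authors' RPKM (reads per kilobase of gene, scaled to the library's total reads) used the whole length of each gene, introns included.

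The promoters show what the genes share, and all 4 genes had an entry in the RefSeq table. The 150 bases before each RefSeq start (GRCh38.p14) are printed 5′ to 3′ in the direction of the gene, with the kappa B 9-mer that all 4 hold in capitals.
CXCL1 (chr4:73869243-73869392, plus strand): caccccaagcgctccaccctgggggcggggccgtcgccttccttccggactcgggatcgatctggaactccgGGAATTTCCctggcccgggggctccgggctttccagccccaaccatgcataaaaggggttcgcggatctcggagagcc
CXCL2 (chr4:74099196-74099345, minus strand): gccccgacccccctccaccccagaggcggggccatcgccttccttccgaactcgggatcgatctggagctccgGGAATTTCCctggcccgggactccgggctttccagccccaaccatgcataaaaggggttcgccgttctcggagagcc
CXCL3 (chr4:74038690-74038839, minus strand): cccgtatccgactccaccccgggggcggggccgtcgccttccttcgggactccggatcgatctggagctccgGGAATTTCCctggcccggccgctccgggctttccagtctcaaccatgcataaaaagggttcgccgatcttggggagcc
CXCL8 (chr4:73740419-73740568, plus strand): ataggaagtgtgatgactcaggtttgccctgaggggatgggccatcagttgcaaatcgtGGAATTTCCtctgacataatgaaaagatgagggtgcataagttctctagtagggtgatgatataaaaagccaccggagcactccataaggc

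The run GGAATTTCC was the longest stretch found in all 4 windows of 250 bases before the start. It stood 78 to 70 bases before the start in CXCL1 and CXCL3, 77 to 69 in CXCL2 and 91 to 83 in CXCL8. On either strand it occurred in 0.413% of 35116 RefSeq promoter windows of that length. The longer run GGGAATTTCC, which contains it, was in CXCL1, CXCL2 and CXCL3 and in 0.142% of all windows, and the general kappa B consensus matched in those 3 genes and in 5.21%. CXCL8 alone among the 4 held an AP-1 match (TGANTCA, as TGACTCA 137 to 131 bases before the start, 6.57% of all windows) and a TATAAA match (31 to 26 bases before, 10.7%). CXCL1, CXCL2 and CXCL3 had CATAAAA 31 to 25 bases before the start instead (3.4% of all windows). These are matches of letters and not measured binding.

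Over the 250 bases the promoters of CXCL1 and CXCL3 were 81.4% identical, those of CXCL2 and CXCL3 73.3% and those of CXCL1 and CXCL2 67.9%. The longest run shared by these 3 had 23 bases. CXCL8 reached 40.7% to 43.6% identity with them. CXCL1, CXCL2 and CXCL3 are close paralogues, and how the authors' counting placed reads that match more than 1 of them is unknown here, so the split of reads among these 3 is uncertain. The RefSeq start differs from that of the tables: in the tables CXCL8 begins 63 bases and CXCL2 98 bases further upstream, CXCL1 begins 11 bases further downstream, and CXCL3 begins at the RefSeq start.

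The libraries held 14.4 to 31.1 M estimated reads in genes, apart from KO C28 Bru-seq replicate 2 with 5.64 M. Reads outside genes were 46.5% of the total there and 9.93% to 20.01% in the other 8. Read density over olfactory receptor genes, which this cell type should leave silent, was 0.522 reads per kb there and 0.479 in KO C22 Bru-seq replicate 1, against 0.0381 to 0.152 in the other 7. Taken as background, such density would give at most 0.589% of the CXCL1 reads and 5.24% of the CXCL8 reads of any library. Where CXCL2 and CXCL3 had reads it would give at most 1.91% and 9.13% of them, the latter of 1 read in KO C22 BruUV-seq. In KO C28 Bru-seq replicate 2, where both had 0 reads, it would give 1.18 and 1.1 reads. KDM6A itself was transcribed in every library, between 64.8 and 426 CPM (counts scaled to library size by TMM, as all CPM here). In Bru-seq its log2 fold change against WT was 0.24 (SE 0.85) for KO C22, and for KO C28 it was -0.61 (SE 0.86); reads over a whole gene do not show a small lesion. Of 5 epithelial markers the keratins KRT8, KRT18 and KRT19 were present in all libraries (lowest values 38.1, 24.5 and 24.5 CPM), and KRT7 and EPCAM were lower (lowest values 1.33 and 2.05 CPM). The 5 summed to 232 to 557 CPM in WT, 116 to 426 in KO C22 and 318 to 2020 in KO C28, highest in Bru-seq replicate 2. Of 8 neutrophil and monocyte markers, S100A8, S100A9 and FCGR3B were at 0 reads in every library. The summed level of the 8 was 0.137 to 1.85 CPM in WT, 1.95 to 6.08 in KO C22 and 1.08 to 19.3 in KO C28, highest in Bru-seq replicate 2. The 5 fibroblast markers summed to 2.06 to 6.26, 5.98 to 39.4 and 4.84 to 19.5 CPM in the same order, and the 3 endothelial markers to 1.52 to 2.42, 1.02 to 3.39 and 0.637 to 17.4. Their part in the results was not tested.

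CXCL1, a chemokine first described as a growth factor of melanoma cells, was read 113 and 55 times by the WT Bru-seq libraries, 655 and 87 times by those of KO C22, and 155 and 163 times by those of KO C28. Scaled to library size these were 5.16 and 2.25 CPM (WT), 35.3 and 3.87 CPM (KO C22), and 9.84 and 19.9 CPM (KO C28). The BruUV-seq levels were 4.06 CPM for WT, 10.2 for KO C22 and 10.6 for KO C28. All 3 KO C28 libraries were above all 3 WT libraries, in CPM and in the authors' RPKM alike. How many of all genes separate in this way, here and below, was not counted. In KO C22, 2 of 3 libraries were above all of WT, and Bru-seq replicate 2 lay within the WT range. In bulk RNA such as this, fewer transcribing cells and less transcription per cell cannot be told apart. Over the 3 libraries of a line the mean was 3.83 ± 1.47 CPM in WT, 13.4 ± 5.59 in KO C28 and 16.4 ± 16.6 in KO C22 (SD, n = 3).

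In Bru-seq the CXCL1 log2 fold change against WT was 2.36 (SE 1.03), a 5.13-fold level, in KO C22 and 1.90 (SE 1.01), 3.73-fold, in KO C28. Neither passed edgeR's quasi-likelihood test at an adjusted p of 0.05 (Benjamini-Hochberg adjusted p = 1 and 0.728, n = 2 libraries per line). The unadjusted values were 0.042 and 0.0869. Both comparisons share the WT libraries. In that test 0.00438% of the 22827 genes passed in each clone. A higher log2 fold change than that of CXCL1 was held by 5.68% of genes in KO C22 and 18.4% in KO C28. With BruUV-seq in the same fit, with assay as a term, the values were 2.04 (SE 0.76, edgeR adjusted p = 0.666) in KO C22 and 1.78 (SE 0.75, edgeR adjusted p = 0.473) in KO C28, n = 3 per line, where 0.178% and 0.125% of 20819 genes passed. Among those genes 3.58% in KO C22 and 12.3% in KO C28 had a higher value than CXCL1. The KO C22 value rested on 1 library: without KO C22 Bru-seq replicate 1 it was 0.06 (SE 1.32) in Bru-seq and 0.77 (SE 0.75) with both assays. Where leaving out a library leaves 1 in a group of the Bru-seq fit, here and below, the SE takes its spread from the other lines, and the lone library is assumed to vary like them. The KO C28 value stayed between 1.37 and 2.70 in Bru-seq when each library was left out in turn, with 1.37 (SE 1.11) without Bru-seq replicate 2. The clones did not differ past the test, with KO C28 against KO C22 at -0.46 (SE 0.98, edgeR adjusted p = 0.968) in Bru-seq and 1.84 (SE 1.45) without KO C22 Bru-seq replicate 1.

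**Figure D1:**
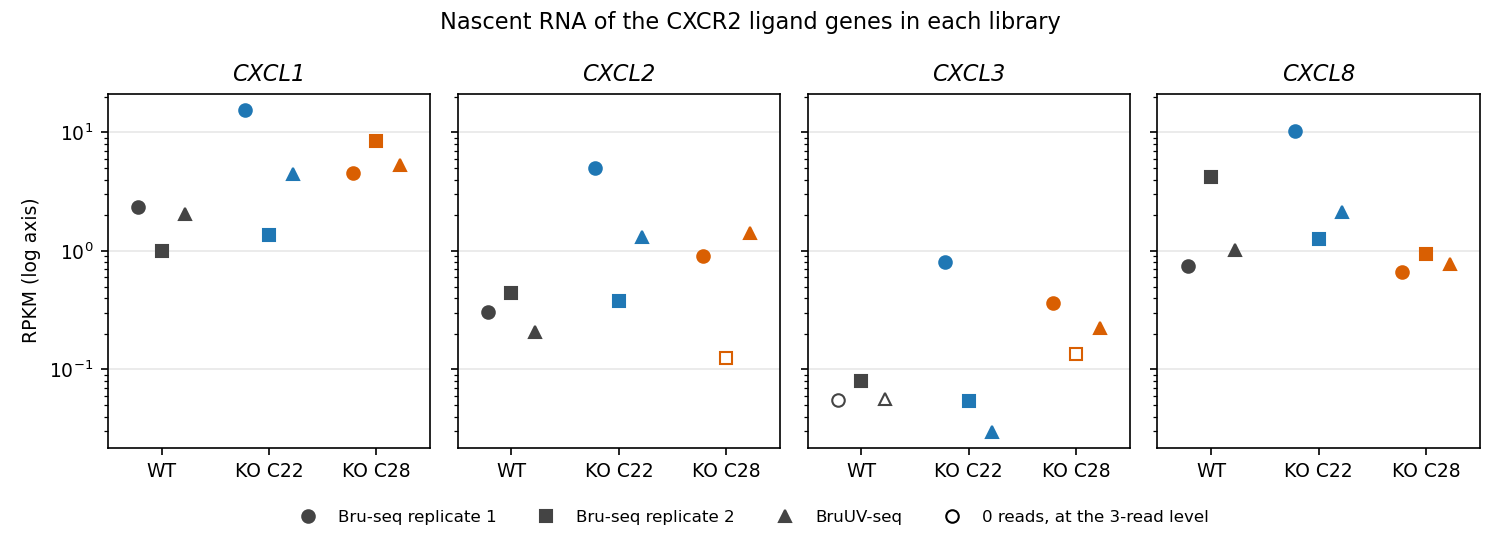
RPKM (the authors' values, log axis) of each chemokine gene in the 9 libraries, by line; circles and squares are Bru-seq replicates 1 and 2, triangles BruUV-seq, and open symbols mark libraries with 0 reads, drawn at the level of 3 reads, so that a symbol for 1 read can lie lower. CXCL1 in KO C28 runs from 4.57 to 8.41, above the WT range of 1 to 2.37, while KO C22 runs from 1.36 to 15.6.

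CXCL2, a close relative of CXCL1 that is likewise induced early in inflammation, was transcribed at lower levels. Its Bru-seq reads were 18 and 30 (WT), 257 and 30 (KO C22), and 38 and 0 (KO C28), or 0.823 and 1.23, 13.8 and 1.33, and 2.42 and 0 CPM. Its BruUV-seq reads were 12 (WT), 47 (KO C22) and 62 (KO C28), or 0.505, 3.62 and 3.48 CPM. By CPM every KO C22 library was above every WT library. By RPKM this was not so, since KO C22 Bru-seq replicate 2 (0.381) lay below WT Bru-seq replicate 2 (0.444).

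The CXCL2 log2 fold change in KO C22 was 2.83 (SE 1.70, edgeR adjusted p = 1) in Bru-seq and 2.87 (SE 1.29, edgeR adjusted p = 0.836) with both assays, and 0.37 and 1.14 without KO C22 Bru-seq replicate 1. In KO C28 it was 0.25 (SE 1.61, edgeR adjusted p = 0.975) and 1.25 (SE 1.30, edgeR adjusted p = 0.75). Between the clones it was -2.58 (SE 1.68) and -1.62 (SE 1.30), KO C28 against KO C22, and none of these passed. Higher values than that of CXCL2 were held by 3.75% and 1.17% of genes in KO C22 and by 40.4% and 17.3% in KO C28. Between the clones 1.83% and 2.66% of genes had a lower one. The value between the clones was -0.13 and -0.19 without KO C22 Bru-seq replicate 1, and -10.09 in Bru-seq without KO C28 Bru-seq replicate 1, which leaves that clone at 0 reads. The value of KO C28 against WT moved with the library with 0 reads: without KO C28 Bru-seq replicate 2 it was 1.17 (SE 1.28) in Bru-seq and 2.02 (SE 0.93) with both assays, and without KO C28 BruUV-seq it was 0.27 with both. From replicate 1 and the library sizes 19.8 CXCL2 reads would have been met there, and of 2570 genes within 1.5-fold of that number 13.6% were also at 0 in that library. The RPKM of 0 allows up to 0.126, the level of 3 reads, for counting error only.

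CXCL3, the least transcribed of the 4, encodes a chemokine of the same subgroup. Bru-seq replicates 1 and 2 held 0 and 5 reads for WT, 39 and 4 for KO C22, and 14 and 0 for KO C28, and BruUV-seq held 0, 1 and 9. The highest level was 2.1 CPM, in KO C22 Bru-seq replicate 1. It passed the filter on low counts for Bru-seq and not for both assays, so only the first was fitted. The log2 fold changes of 3.32 (SE 2.49, edgeR adjusted p = 1) in KO C22 and 2.06 (SE 2.41, edgeR adjusted p = 0.85) in KO C28 did not pass. They went to 0.73 without KO C22 Bru-seq replicate 1 and to -4.09 without KO C28 Bru-seq replicate 1: the first shrank and the second turned. The -4.09 leaves KO C28 at 0 reads, so its size is not a measured fold. Between the clones the value was -1.26 (SE 2.31, edgeR adjusted p = 0.961). Higher values than that of CXCL3 were held by 2.49% of genes in KO C22 and 17.2% in KO C28, and a lower one between the clones by 9.6%.

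CXCL8, the main neutrophil attractant of human tissue, which also binds CXCR1, followed another order of lines. Bru-seq replicates 1 and 2 held 62 and 405 reads for WT, 754 and 142 for KO C22, and 39 and 32 for KO C28. These were 2.83 and 16.6, 40.6 and 6.29, and 2.48 and 3.9 CPM. The BruUV-seq levels were 3.49 CPM for WT, 8.39 for KO C22 and 2.69 for KO C28. All 3 KO C28 libraries were below all 3 KO C22 libraries, in CPM and RPKM, and within or below the WT range. How many of all genes separate so was not counted. The means over 3 libraries were 7.63 ± 7.75 CPM in WT, 18.4 ± 19.2 in KO C22 and 3.03 ± 0.765 in KO C28 (SD, n = 3).

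Between the clones, CXCL8 differed by a log2 fold change of -2.93 (KO C28 against KO C22, SE 1.11) in Bru-seq, a 7.63-fold lower level in KO C28, and by -2.42 (SE 0.83), 5.37-fold lower, with both assays. The edgeR adjusted p was 0.959 and 0.735 (unadjusted 0.0224 and 0.0135, n = 2 and 3 per line), so neither passed. Here 0% of genes passed edgeR in either fit, while 747 and 1189 genes (3.27% and 5.71%) had an unadjusted p under 0.05 and DESeq2 called 53 and 228 genes (0.232% and 1.10%), none of them among the 4. In this direction 1.32% and 0.745% of genes had a lower log2 fold change than CXCL8. Without KO C22 Bru-seq replicate 1 the values were -1.08 (SE 1.37) and -1.39 (SE 0.89). Against WT the CXCL8 value for KO C22 was 1.22 (SE 1.03) in Bru-seq and 1.27 (SE 0.79) with both assays, with edgeR adjusted p of 1 and 0.975. For KO C28 it was -1.71 (SE 1.06) and -1.15 (SE 0.81), with edgeR adjusted p of 0.736 and 0.618. In KO C22 16.9% and 9.93% of genes had a higher value than CXCL8, and in KO C28 5.55% and 7.38% had a lower one. The KO C28 value rested on WT Bru-seq replicate 2 and was 0.08 (SE 1.27) and -0.17 (SE 0.84) without it. The KO C22 value in Bru-seq was -0.63 (SE 1.44) without KO C22 Bru-seq replicate 1 and 3.01 (SE 1.47) without WT Bru-seq replicate 2. With both assays it was 0.13 and 2.33 without the same libraries.

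**Figure D2:**
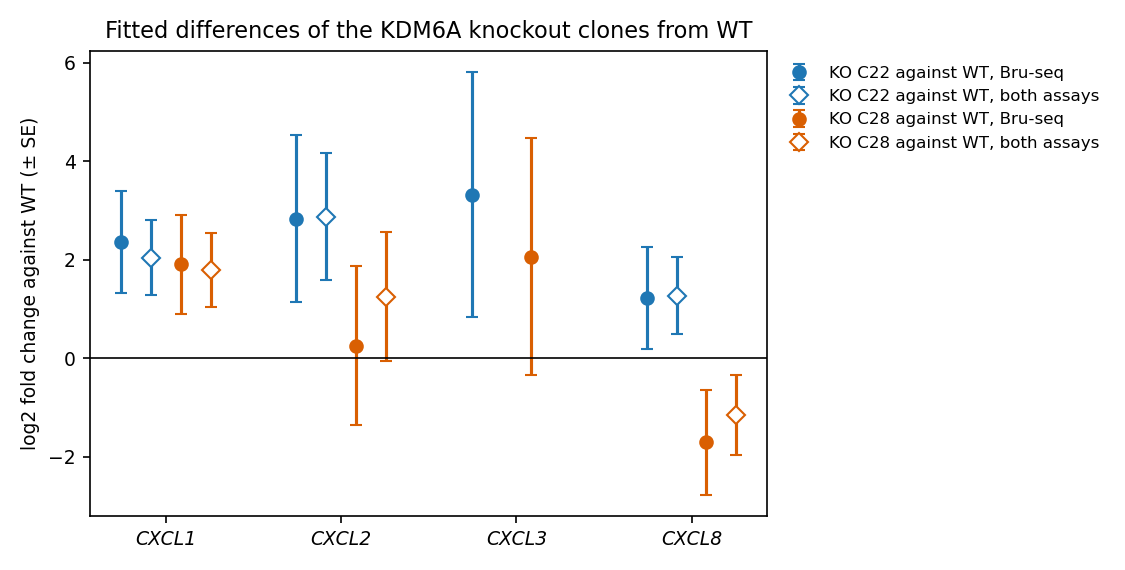
Log2 fold change of each chemokine gene against WT with its SE, from edgeR fits of the 6 Bru-seq libraries (filled) and of all 9 libraries (open), KO C22 in blue and KO C28 in orange; CXCL3 entered the Bru-seq fit only. CXCL1 lies between 1.78 and 2.36 in both clones and both fits, CXCL8 is above 0 in KO C22 and below 0 in KO C28, and no value passed the edgeR test.

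In BruUV-seq, with 1 library per line and no test between lines, ratios of CPM carry exact 95% intervals that cover counting error only. CXCL1 was 2.49 times (1.9 to 3.27) the WT level in KO C22 and 2.58 times (2.01 to 3.34) in KO C28. CXCL2 was 7.16 times (3.74 to 14.8) and 6.89 times (3.68 to 14). CXCL3 had 0 reads in WT and 9 in KO C28, which in CPM is 4 times the level that 3 reads would give in WT. That value leaves out the counting error of the 9 reads and is not a lower bound. CXCL8 was 2.4 times (1.79 to 3.23) the WT level in KO C22 and 0.771 times (0.529 to 1.11) in KO C28, so KO C28 stood at 0.321 (0.224 to 0.455) of KO C22. CXCL1 and CXCL2 did not differ between the clones beyond counting error in these libraries, with ratios of 1.04 (0.827 to 1.31) and 0.962 (0.648 to 1.44). BruUV-seq gave log2 fold changes of -0.42 (SE 0.65) for CXCL1, -0.07 (SE 1.12) for CXCL2 and -1.05 (SE 0.72) for CXCL8 against Bru-seq. None passed (edgeR adjusted p = 0.705, 0.974 and 0.375, n = 3 BruUV-seq and 6 Bru-seq libraries), where 0.447% of genes did. These values do not allow for gene length. With an offset for it they were -1.12, -0.67 and -1.78 (edgeR adjusted p = 0.403, 0.771 and 0.231).

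The Bru-seq replicates lay far apart for all 4 genes in KO C22, for CXCL8 in WT and for CXCL2 and CXCL3 in KO C28. Between the KO C22 Bru-seq replicates, replicate 1 over replicate 2 was 9.12-fold for CXCL1, 10.4-fold for CXCL2, 11.8-fold for CXCL3 and 6.45-fold for CXCL8. The median gene differed 1.56-fold there, over 17436 genes with a mean of at least 20 reads, and 7.23% to 9.43% of them differed by as much as the 4 chemokine genes. In WT the CXCL8 replicates differed 5.85-fold, as 3.87% of genes did, and those of CXCL1 2.3-fold, as 26.1% did, with CXCL8 higher in replicate 2 and CXCL1 higher in replicate 1. In KO C28, where the median gene differed 2.43-fold, CXCL1 differed 2.02-fold and CXCL8 1.57-fold, while CXCL2 had 38 and 0 reads and CXCL3 14 and 0, where 19.8 and 7.31 reads would have been met in replicate 2 from replicate 1 and the library sizes.

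Set against each other within a library, per length in RPKM, CXCL8 had its smallest share in the KO C28 libraries. CXCL1 was the highest of the 4 in 8 of 9 libraries, all but WT Bru-seq replicate 2, where CXCL8 led. The RPKM ratio of CXCL8 to CXCL1 was 0.144, 0.112 and 0.146 in the KO C28 libraries (Bru-seq replicates 1 and 2, then BruUV-seq). It was 0.659, 0.932 and 0.473 in KO C22 and 0.314, 4.22 and 0.493 in WT. Every KO C28 library was below every library of the other lines. CXCL8 made up 10.0% to 10.1% of the summed RPKM of the 4 in KO C28, 26.7% to 41.4% in KO C22 and 21.8% to 73.5% in WT. This ratio was chosen after its values were seen and has no test.

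**Figure D3:**
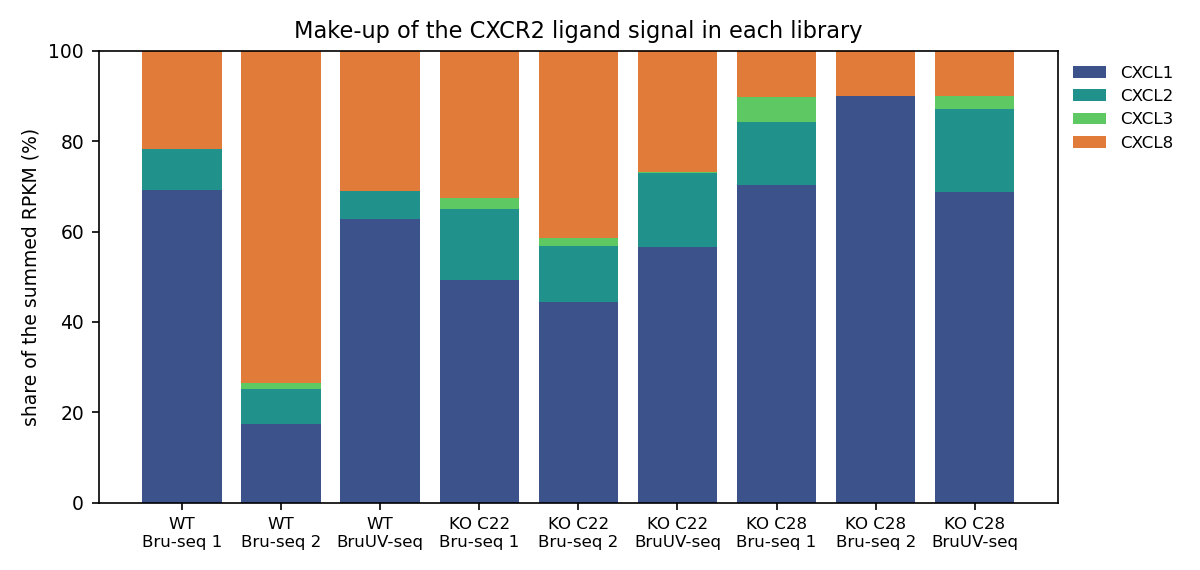
Share of each chemokine gene in the summed RPKM of the 4 (%), 1 bar per library. CXCL8 takes 10.0% to 10.1% in the 3 KO C28 libraries and 21.8% or more in the other 6, with 73.5% in WT Bru-seq replicate 2.

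Across the 9 libraries, log2 CPM of CXCL2 and CXCL3 correlated at r = 0.80, and the other combinations of the 4 at 0.23 (CXCL1 and CXCL8) to 0.51 (CXCL2 and CXCL8). These are descriptions over libraries that share depth and line. Among 11811 genes with a mean of at least 100 reads, the 5 most like CXCL1 were C15orf48 (r = 0.97), CMTM6 (0.93), LINC01122 (0.85), CACNA2D3 (0.84) and RGS7 (0.84). C15orf48, on chromosome 15, had 3.54 and 2.17 CPM (WT), 20.8 and 3.77 CPM (KO C22), and 5.74 and 12 CPM (KO C28) in the Bru-seq replicates and 4.25, 8.66 and 6.25 CPM in BruUV-seq. Like CXCL1 it was highest in KO C22 Bru-seq replicate 1 and lowest in WT Bru-seq replicate 2. For CXCL8 they were PLEK2 (r = 0.92), FXYD5 (0.82), APH1B (0.82), DLX6-AS1 (0.81) and COL27A1 (0.78). PLEK2 had 3.25 and 10.4 CPM (WT), 12.7 and 7.4 CPM (KO C22), and 4.52 and 3.66 CPM (KO C28) in the Bru-seq replicates. For CXCL2 they were MIR381HG (0.92), ZNF441 (0.90), PWWP2A (0.89), OGDH (0.89) and CRISPLD2 (0.88), and for CXCL3 TBX3 (0.88), SLC20A1 (0.85), ATP10D (0.83), AP001258.1 (0.80) and PLAUR (0.79). CXCL2 and CXCL3 had means under 100 reads and so could not be listed themselves.

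Further ligands and receptors of the CXCR2 pathway were close to silent. None of 8 such genes, the ligands CXCL5, CXCL6, PPBP, PF4 and PF4V1, the receptors CXCR1 and CXCR2 and the scavenging receptor ACKR1, passed the filter on low counts in either fit. Of all 57733 genes 22827 passed it in Bru-seq and 20819 with both assays. Over all 9 libraries together CXCL5 had 11 reads, CXCL6 23, CXCR2 14, ACKR1 6, PF4 3 and PF4V1 1, and CXCR1 and PPBP had 0. KO C28 Bru-seq replicate 2 held 11 of the CXCR2 reads and all 6 of ACKR1, where background density would give 5.88 and 1.67. In BruUV-seq CXCL6 had 4 (WT), 5 (KO C22) and 10 reads (KO C28).

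Of 32 genes of NF-kB signalling, its targets and mRNA decay, 25 were tested, and 0 passed edgeR in any comparison. In Bru-seq 2 in KO C22 and 3 in KO C28 had an unadjusted p under 0.05, as 2.01% and 6.28% of all genes did. Against WT with both assays 5 in KO C22 and 2 in KO C28 did (5.86% and 10.5% of all genes). Between the clones 5 did in Bru-seq and 6 with both assays (3.27% and 5.71% of all genes). DESeq2 called 0 of them against WT in Bru-seq, where it called 0.399% and 0.898% of all genes. With both assays DESeq2 called 2 in KO C22, 0 in KO C28, 3 between the clones and 12 for BruUV-seq against Bru-seq, and of all genes it called 1.67%, 3.42%, 1.10% and 18.9%. Their median log2 fold change in Bru-seq was -0.07 in KO C22 and -0.78 in KO C28 against WT, with 0.07 and -0.08 over all genes tested. For KO C28 against KO C22 the median was -0.77, with -0.01 over all genes tested. The values that follow are against WT in Bru-seq. NFKB1, which encodes the p50 subunit, was at 0.60 (SE 0.83) for KO C22 and -0.89 (SE 0.84) for KO C28, and RELA, the p65 subunit, at -0.38 (SE 0.59) and -0.01 (SE 0.59), with a sign that turned under other scalings. NFKBIA, the inhibitor that NF-kB itself induces, was at 1.16 (SE 0.67) and 0.40 (SE 0.66), and TNFAIP3, another induced inhibitor, at 0.75 (SE 0.73) and -1.24 (SE 0.74). Several of these values moved with 1 library. For KO C22, NFKBIA was at 0.04 without KO C22 Bru-seq replicate 1, NFKB1 at 0.13 without KO C22 Bru-seq replicate 2, and TNFAIP3 at 0.18 and 1.75 without WT Bru-seq replicates 1 and 2. For KO C28, NFKB1 was at -2.30 and -0.20 without KO C28 Bru-seq replicates 1 and 2, NFKBIA was at 0.06 without KO C28 Bru-seq replicate 2, and TNFAIP3 was at -0.25 without WT Bru-seq replicate 2. The smallest adjusted p against WT with both assays belonged to TRAF1, an adaptor of TNF receptors, which had a 4.46-fold level in KO C22 (SE 0.54 on the log2 scale, edgeR adjusted p = 0.231). For KO C28 its log2 fold change was -0.06 (SE 0.52), and the sign turned under other scalings.

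In Bru-seq TRAF1 had 79.3 and 41.8 CPM in KO C22, where WT had 5.71 and 17.5 and KO C28 11.3 and 6.83. TNIP1, a partner of TNFAIP3, was at 1.62 (SE 0.43, edgeR adjusted p = 0.287) for KO C22 and -0.23 (SE 0.42) for KO C28. BIRC3, an inhibitor of apoptosis, was at 1.09 (SE 0.42) and -1.26 (SE 0.42), and between the clones at -2.34 (SE 0.44, edgeR adjusted p = 0.212). Its Bru-seq levels were 138 and 137 CPM (WT), 417 and 254 CPM (KO C22), and 82.3 and 35.3 CPM (KO C28), its BruUV-seq levels 99.2, 157 and 39.4 CPM. All KO C28 libraries were below all others, a separation that was not counted over all genes. ICAM1, an adhesion molecule for leukocytes, was at -0.30 (SE 0.67) and -1.91 (SE 0.72, edgeR adjusted p = 0.461). ZFP36, an mRNA decay factor, was lower in both clones, at -1.50 (SE 0.58, edgeR adjusted p = 0.707) and -1.27 (SE 0.59, edgeR adjusted p = 0.48). In Bru-seq it was at -1.78 (SE 0.79) and -1.86 (SE 0.80), with an unadjusted edgeR p of 0.0466 and 0.0391. Its BruUV-seq levels were 703 (WT), 380 (KO C22) and 610 CPM (KO C28). The DESeq2 calls were TRAF1 and TNIP1 in KO C22 (adjusted p = 0.00735 and 0.00834) and BIRC3 (adjusted p = 4.57e-06), TNIP1 and TRAF1 between the clones.

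Within 1 Mb on either side of the 4 genes the tables list 41 other genes. Of these 11 had 0 reads in every library, and 15 were tested in Bru-seq: COX18, ANKRD17, AC053527.1, SNORA3, ALB, RASSF6, AC112518.1, MTHFD2L, AC093677.2, EPGN, EREG, AREG, BTC, PARM1 and AC110760.1. By edgeR 0 of 15 passed in either clone, with 3 and 1 at an unadjusted p under 0.05 in KO C22 and KO C28 (2.01% and 6.28% of all genes), and DESeq2 called 0 in either. Their median log2 fold change was 0.34 in KO C22 and 0.32 in KO C28, and the single values ran from -2.90 to 2.13 and from -2.24 to 4.62. The 4.62 belongs to AC110760.1, with 7 and 69 reads in the KO C28 Bru-seq replicates, where background density over its length would give 21.4 reads in replicate 2. MTHFD2L, a mitochondrial folate enzyme and the nearest tested gene beyond CXCL2, was at -0.44 (SE 0.63) and -0.79 (SE 0.64). With both assays 12 were tested, and 0 passed edgeR. Unadjusted p was under 0.05 for 4 in KO C22, 1 in KO C28 and 2 between the clones (5.86%, 10.5%, 5.71% of all genes). PARM1 was then at 2.31 (SE 0.79, edgeR adjusted p = 0.566) for KO C22 and -0.94 (SE 0.78) for KO C28. Between the clones it was at -3.25 (SE 0.83, edgeR adjusted p = 0.48), and DESeq2 called it, as 1.10% of genes. Background would give 61.1 of its 92 reads in KO C28 Bru-seq replicate 2.

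EREG and AREG, the genes of the EGF receptor ligands epiregulin and amphiregulin, had lower levels in KO C22 than in WT. AREG was also lower in KO C28. The Bru-seq levels of EREG were 35.5 and 61.2 CPM (WT), 7.59 and 15.6 CPM (KO C22), and 37.1 and 11.7 CPM (KO C28), and its BruUV-seq levels 42.2, 5.16 and 30.6 CPM. Those of AREG were 6.58 and 22.3, 1.99 and 1.95, and 2.23 and 4.39 CPM, then 15.8, 0.154 and 6.51 CPM. Every KO C22 library was below every WT library for both, in CPM. For AREG every KO C28 library was as well, in CPM and not in RPKM. The share of all genes that separate so was not counted. With both assays the log2 fold changes in KO C22 were -2.32 (SE 0.55, edgeR adjusted p = 0.195) for EREG and -3.49 (SE 0.93, edgeR adjusted p = 0.295) for AREG, which did not pass. DESeq2 called both (adjusted p = 0.00286 for each), as it did 1.67% of all genes, and edgeR without KO C28 Bru-seq replicate 2 called EREG (adjusted p = 0.0377). In KO C28 the values with both assays were -0.77 (SE 0.53, edgeR adjusted p = 0.61) for EREG and -1.73 (SE 0.85, edgeR adjusted p = 0.507) for AREG. DESeq2 called neither gene there.

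**Figure D4:**
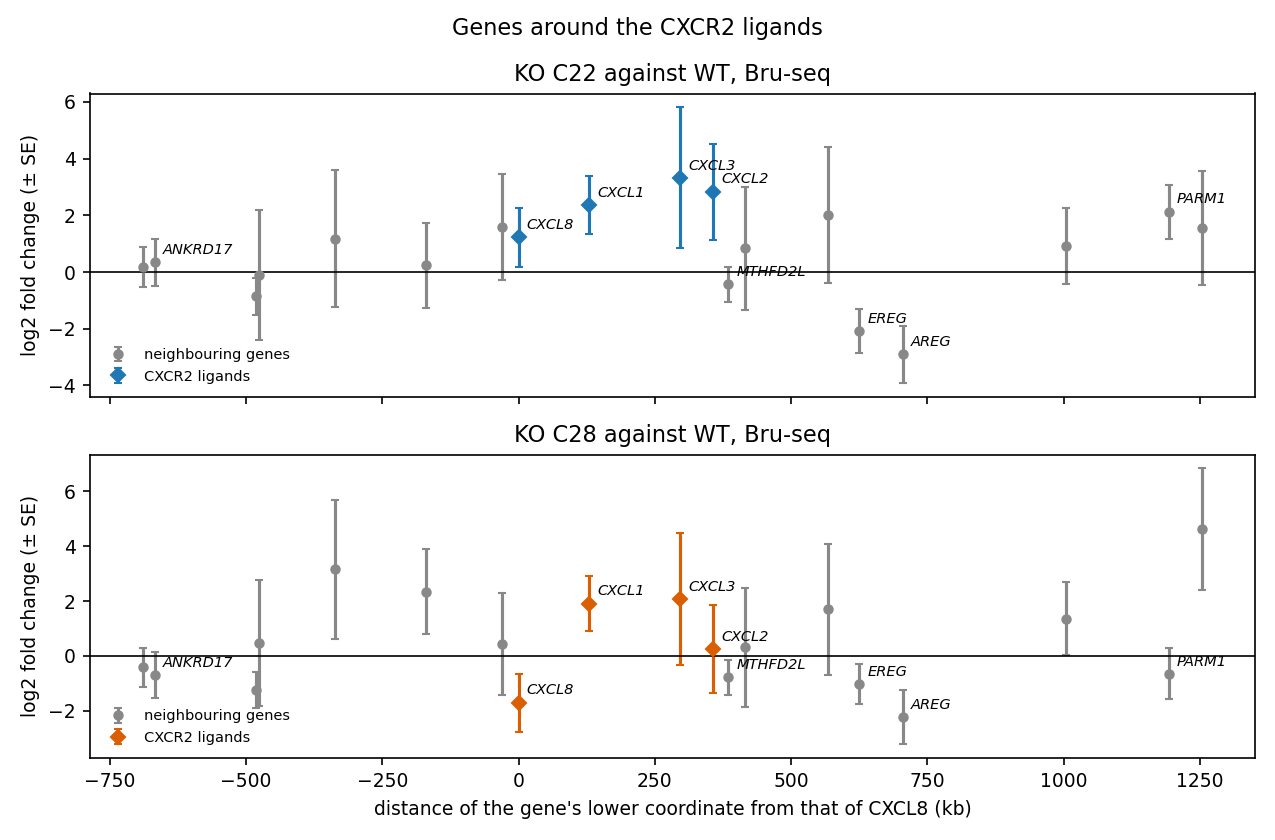
Log2 fold change with SE in Bru-seq for the tested genes around the chemokine genes, by distance in kb of each gene's lower coordinate from that of CXCL8; KO C22 against WT above, KO C28 against WT below, with the chemokine genes in colour. Single neighbours lie from -2.90 to 2.13 in KO C22 and from -2.24 to 4.62 in KO C28, the 4.62 being AC110760.1 with 7 and 69 reads in the KO C28 replicates, and none passed.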

How the data were processed

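The deposited tables, 1 per library, give an expected count per gene (fractional estimated reads) and an RPKM as deposited by the authors, judged from the values since the tables have no headers. Per the submitters' processing notes, CASAVA 1.8.2, Bowtie2 2.3.3, STAR 2.5.3a and bedtools 2.16.2 were used, with builds hg38 and GRCh38 and roles unstated. Multiple mapping and the annotation release are not given in the sources used here. RPKM values were used as deposited and imply library totals that include reads outside genes.

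Expected counts were rounded. edgeR 4.0.16 (R 4.3.3) was fitted to the 6 Bru-seq libraries with a term for line (22827 genes, common biological coefficient of variation 79.3%) and to all 9 libraries with terms for line and assay (20819 genes, 63.4%), with filterByExpr, TMM, quasi-likelihood tests and Benjamini-Hochberg adjustment over all genes at 0.05. The SE of an edgeR value is its absolute log2 fold change divided by the square root of the quasi-likelihood F statistic, not an error estimated by the model itself. CPM used TMM over 9 libraries. Intervals and floors (3 reads) cover counting error only, since reads carry no molecular identifiers. Alternatives were DESeq2 1.42.0, other size factors, no filter, a length offset, background subtraction, a replicate block and leaving out each library. Named genes were the 4 chemokine genes, tested neighbours, up to 6 genes of the NF-kB list by adjusted p plus NFKB1, RELA, NFKBIA and TNFAIP3, and the 5 genes most like each chemokine gene by Pearson r of log2 CPM (prior count 2). The members and lists were chosen with earlier results of these data known.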

Additional observations from a re-analysis of the deposited data

How the results depend on the processing

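None of the 4 chemokine genes passed in any of 312 alternatives to their 24 fitted values. DESeq2 gave CXCL3 no adjusted p in any comparison, so CXCL3 could not pass there. The direction turned in 17 alternatives, and 10 of the 14 values against WT kept theirs throughout. Log2 fold changes that turned, with each library left out in turn, ran from -1.26 to 1.84 (CXCL1, KO C28 against KO C22, Bru-seq), from -0.71 to 1.09 (CXCL1, KO C28 against KO C22, both assays), from -0.72 to 0.27 (CXCL1, BruUV-seq against Bru-seq), from -1.04 to 0.75 (CXCL2, BruUV-seq against Bru-seq), from -7.30 to 1.17 (CXCL2, KO C28 against WT, Bru-seq), from -7.36 to 1.33 (CXCL3, KO C28 against KO C22), from -4.09 to 6.03 (CXCL3, KO C28 against WT), from -0.63 to 3.01 (CXCL8, KO C22 against WT, Bru-seq) and from -2.41 to 0.08 (CXCL8, KO C28 against WT, Bru-seq). The -7.30, -7.36 and -4.09 came from fits that left KO C28 at 0 reads, and the 6.03 from a fit that left WT at 0 reads. Their size is not a measured fold. The replicate block turned CXCL1 in KO C28 against KO C22 to 0.20 and CXCL2 in KO C28 against WT to -1.62. It left 0 genes called in KO C22 and in KO C28 against WT. Same-numbered Bru-seq libraries deviated together at r = 0.459 (KO C22 with WT), 0.0369 (KO C28 with WT) and -0.382 (between the clones), so the numbers were not taken to pair them.

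Counts of genes called, over all genes, moved with most settings. In the order KO C22 against WT, KO C28 against WT and KO C28 against KO C22, DESeq2 called 91, 205 and 53 genes in Bru-seq and 348, 711 and 228 with both assays, and 3941 for BruUV-seq against Bru-seq. Without the low-count filter edgeR called 43, 190 and 12, then 272, 1100 and 230, and 2326. Background subtraction left 0 in KO C22 and 0 in KO C28 in Bru-seq, 20 in KO C22 with both assays and 0 for BruUV-seq. Other size factors (RLE) gave 2 in KO C22 in Bru-seq and 1 for BruUV-seq, and the length offset gave 2 between the clones with both assays and 0 for BruUV-seq. With each library left out the counts ran from 0 to 22 (KO C22) and 0 to 275 (KO C28) against WT and 0 to 203 between the clones in Bru-seq, from 2 to 137, 1 to 66 and 0 to 11 with both assays, and from 0 to 3393 for BruUV-seq. Leaving out KO C28 Bru-seq replicate 2 gave the highest count in the 4 comparisons with both assays, KO C22 Bru-seq replicate 1 gave the 22 and the 203, and KO C22 Bru-seq replicate 2 gave the 275. The cause was not tested. Depth limits CXCL3 most, with 0 to 39 reads a library.

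Of 21 values of other named genes that were followed through the alternatives, 16 kept their direction in all of them. In 10 of 274 alternatives edgeR or DESeq2 passed 1 of these genes. ZFP36, PARM1 and the KO C28 values of EREG and AREG were not followed. RELA in KO C28 against WT turned to 0.13 with DESeq2, 0.13 with RLE, 0.37 with background subtraction and 0.01 with the replicate block, and TRAF1 in KO C28 to 0.01 with DESeq2, 0.01 with RLE and 0.07 with the length offset. With each library left out, values ran from -0.41 to 0.44 (RELA, KO C28), -0.69 to 0.07 (RELA, KO C22), -0.49 to 0.44 (TRAF1, KO C28), -0.54 to 0.15 (TNIP1, KO C28) and -0.71 to 0.88 (ICAM1, KO C22).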
